A study of Mus musculus with 37 samples.

Results

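Cytosolic ribosomal protein genes and Eif genes were described across 5 types of mouse myeloid cell that had been given IL-10, LPS, both or neither. Members were found by name alone, with no use of their values. A gene symbol of the Rpl, Rps or Rplp series (a number, with or without a closing a, x, l or y) made a ribosomal protein gene, and a symbol that begins with Eif and a number made an Eif gene. Transcripts of each gene were summed, and a gene was kept if the sum reached 10 in any group. Of 6509 gene names in the table, 14 ribosomal protein genes and 24 Eif genes matched, 38 in all, and every one of them passed this minimum. Among the ribosomal protein genes were Rpl3, Rpl3l, Rpl6, Rpl7, Rpl7a, Rpl8, Rpl9, Rplp0, Rps2, Rps3, Rps4x, Rps4y2 and Rps9. Most ribosomal protein genes of the mouse are not among these and were not analysed here.

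The ribosome joins a small and a large subunit, each built of RNA and of many small basic proteins that the Rps and Rpl genes encode, and these mRNAs are among the most abundant of most cells. Translation starts when initiation factors bring the starter tRNA and the cap of an mRNA to the small subunit, scan to a start codon and let the large subunit join. Many mRNAs of this machinery begin with a run of C and T letters, the terminal oligopyrimidine tract, through which mTOR and the RNA-binding protein Larp1 govern their translation and stability. In myeloid cells the output of this machinery sets how much cytokine a given amount of mRNA yields.

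Cells were from C57Bl6cJ mice. Macrophages were thioglycollate-elicited peritoneal cells that adhered to plastic, neutrophils were bone marrow cells kept overnight with GM-CSF and pooled from several mice, splenic dendritic cells (sDCs) were enriched magnetically, and mast cells and eosinophils were grown from bone marrow. The age and sex of the mice are not given in the sources used here. Groups were untreated, IL-10, LPS, and IL-10 followed by LPS, both agents at 100 ng/ml, and eosinophils had the untreated and the LPS group alone. Cells received IL-10 for 4 h, then LPS for a further stretch of 4 h. By the study's scheme cells without LPS were collected at 4 h and those with LPS at 8 h. LPS and the longer culture therefore cannot be told apart in any comparison of LPS with no LPS. Each of the 18 groups had 2 libraries, but the table gives only the authors' mean of the 2, so no spread, no test and no p-value can be given. A difference is called here only by its size, at least 2-fold, and every level is a normalised value with no unit.

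Full-quantile normalisation gave all 18 columns the same maximum of 185338, so a level tells of a transcript's rank within its group, and a value near the maximum cannot go higher. Column totals lay between 10207959.5 and 11499748. Totals, shares and ranks are of the transcripts in this table alone, which lacks most ribosomal protein genes and ends in a broken-off line. Whether it is complete is not known here. The depth behind the means is not in the table, and no counting interval can be set. The response to LPS was visible in macrophages, where Tnf, the cytokine TNF, went from 712.5 to the maximum of 185338. Several defining markers were high where the labels place them: Cd68 in macrophages (185724.5), Mpo and Mmp9 in neutrophils (22826 and 77310.5), Tpsb2 in mast cells (187854.5) and Epx in eosinophils (185338). Others did not separate the cell types, such as the neutrophil marker Ly6g, at 161.5 in untreated neutrophils and 188.5 in untreated eosinophils, and the macrophage marker Emr1, at 21201 in untreated macrophages and 22514.5 in eosinophils with LPS. Itgax was lower in untreated sDCs (4075.5) than in untreated macrophages (13861), while Xcr1 was highest in sDCs (189.5). Untreated neutrophils also held the eosinophil gene Epx (19128.5) and the dividing-cell gene Top2a (8354.5). Fewer cells of a type and less RNA per cell cannot be told apart in bulk RNA. All sDC libraries and the replicate 2 libraries of the mast cells are listed as TruSeq preparations. Resting differences of sDCs, and in part those of mast cells, from other cells and the kit therefore cannot be told apart. In macrophages, replicate 1 of the untreated and of the IL-10 group was re-analysed from an earlier series and no LPS library was, so both macrophage comparisons of LPS with no LPS set means that hold such a library against means that do not. Its part in these means cannot be taken out.

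Sequences around the annotated starts of the genes that the results turn on are shown to let the C and T runs be seen. The start is that of each gene's most abundant transcript in the GENCODE vM1 annotation on NCBIM37, the build of the files, and each window holds 15 bases before and 15 from the start on, on the strand of the gene. Capitals mark a C followed by at least 5 C or T letters, searched on the transcribed strand only.
Rplp0 (chr5:116009461-116009490, plus strand): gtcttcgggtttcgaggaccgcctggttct
Rps2 (chr17:24856993-24857022, plus strand): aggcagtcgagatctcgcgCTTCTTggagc
Rps4x (chrX:99384650-99384679, minus strand): gccggaagaaggcgagtCTCTTTCCgttcc
Rpl3 (chr15:79913822-79913851, minus strand): cacgttcgcacgctcagggggcggagccat
Eif4b (chr15:101904189-101904218, plus strand): ggtCTTCCCgtcggacgccgcgccaccccc
Eif3e (chr15:43114268-43114297, minus strand): ccgCCTCTCggagctgtcaataaagtttta
Eif3h (chr15:51697013-51697042, minus strand): gcgcctcacgCTTCTCTTTCTTCCTgtctg
Eif6 (chr2:155652647-155652676, minus strand): ccggttcctcatttcctcatCTTTTCattt
Such a run was in the window of 2 of 14 ribosomal protein genes (14.3%), 11 of 24 Eif genes (45.8%) and 22.8% of the 6492 gene names with an annotated start. Rps2 and Rps4x were the ribosomal protein genes that held it. The run of Eif3h, of 15 letters, began 5 bases before the annotated start. An annotated start can lie some bases away from the place where transcription begins, and a window without the run says only that these letters are not in it.

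Ribosomal protein mRNA was most abundant in eosinophils and sDCs at rest. The summed level of the 14 genes was 266247.5 in untreated eosinophils, 199284 in sDCs, 137954 in macrophages, 132024 in mast cells and 129557 in neutrophils. As a share of all values in the column this was 2.4% in eosinophils, 1.76% in sDCs, 1.3% in macrophages, 1.16% in mast cells and 1.24% in neutrophils. Of the 14 genes, 7 had their highest untreated level in eosinophils and 6 in sDCs, against 17.6% and 20.1% of the 6470 gene names that reached the minimum untreated. The remaining gene, Rps4y2, was highest in macrophages, where 24.4% of all gene names were highest. No ribosomal protein gene was highest in neutrophils or in mast cells, against 12.6% and 25.3% of all gene names. Levels in macrophages, neutrophils and mast cells lay close together, and with 1 mean per group their order cannot be set against a spread.

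**Figure D1:**
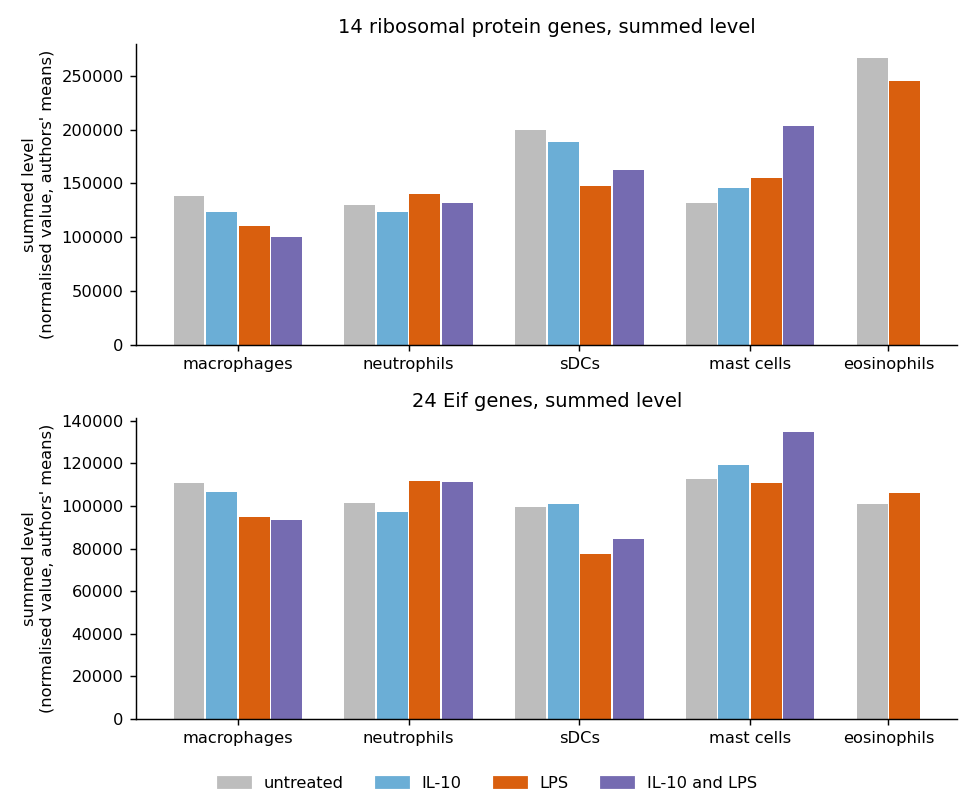
Summed level of the 14 ribosomal protein genes (top) and the 24 Eif genes (bottom) in each of the 18 groups, as the authors' normalised group means with no unit; each bar is 1 group and the colours give the treatment. Ribosomal protein sums run from 99740.5 in macrophages with IL-10 and LPS to 266247.5 in untreated eosinophils, while Eif sums stay between 77307 and 134636.5.

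Rplp0, the protein that anchors the acidic stalk of the large subunit on which elongation factors land, stood apart in eosinophils. Its level was 77554.5 in untreated eosinophils and 53020 with LPS. In the other 16 groups it lay between 13691.5 (macrophages with LPS) and 26513.5 (untreated sDCs). The untreated level in eosinophils was 2.93 times that in sDCs and 5.02 times that in macrophages. Its main transcript ranked 9 of the 16993 transcripts of the table in untreated eosinophils and 33 in untreated sDCs. In this part of the shared value ladder a few ranks span a large difference in level. Without Rplp0 the summed level of the list was 188693 in untreated eosinophils, 172770.5 in sDCs, 122499 in macrophages, 115728 in mast cells and 112385.5 in neutrophils, which keeps eosinophils and sDCs at the top.

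Rps4x, a protein of the small subunit encoded on the X chromosome, was also highest in eosinophils and next in sDCs at rest. It was at 33794.5 in untreated eosinophils, 20255.5 in sDCs, 15396 in mast cells, 14258.5 in macrophages and 11114 in neutrophils. Rpl9, of the large subunit, was lowest in macrophages (5525.5) and 3.16 times higher in sDCs (17469.5), with eosinophils at 14506.5. Rps9, of the small subunit, was at 21450.5 in sDCs, 20362 in eosinophils, 14223 in mast cells, 10507.5 in neutrophils and 8442 in macrophages. Rps2, also of the small subunit, differed in being lowest in sDCs at rest (12268), with 12324.5 in mast cells, 16628.5 in neutrophils, 19607.5 in macrophages and 20688.5 in eosinophils. Rpl3, which lies near the peptidyl transferase centre, spanned the least of the list, from 9998 in neutrophils to 14258.5 in sDCs, a ratio of 1.43.

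The paralogs were far below their namesakes and had patterns of their own. Rpl3l, which takes the place of Rpl3 mainly in muscle, was at 88 in untreated eosinophils and 87.5 with LPS, and between 47 and 71 in the 4 neutrophil groups. In macrophages, sDCs and mast cells it was at 7.5 or below, and 0 was listed in 3 of the 4 mast cell groups. Rps4y2 was highest in macrophages, with 304 untreated, 259 with IL-10, 376 with LPS and 380.5 with both. It was at 125.5 to 232 in neutrophils and 146 to 242.5 in sDCs, and at 29 to 38 in mast cells and eosinophils. Reads from near-identical copies, of which ribosomal protein genes have many as pseudogenes, can be split by the counting, so values this low are uncertain.

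Levels of different genes can be set side by side only per kb of transcript length. Over the 5 untreated groups Rplp0 had the highest mean of the ribosomal protein genes, 22783.7 per kb, followed by Rps4x (20959.6), Rps9 (20671.6) and Rps2 (17618.9). Rps4y2 and Rpl3l were at 136.2 and 27.2 per kb. Among the remaining members the lowest was Rps3 at 7108.3 per kb, although ribosomes hold these proteins in equal number. Of the Eif genes only Eif5a, at 8202.5 per kb, came above Rps3, and the next was Eif4a1 at 4777.3.

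**Figure D2:**
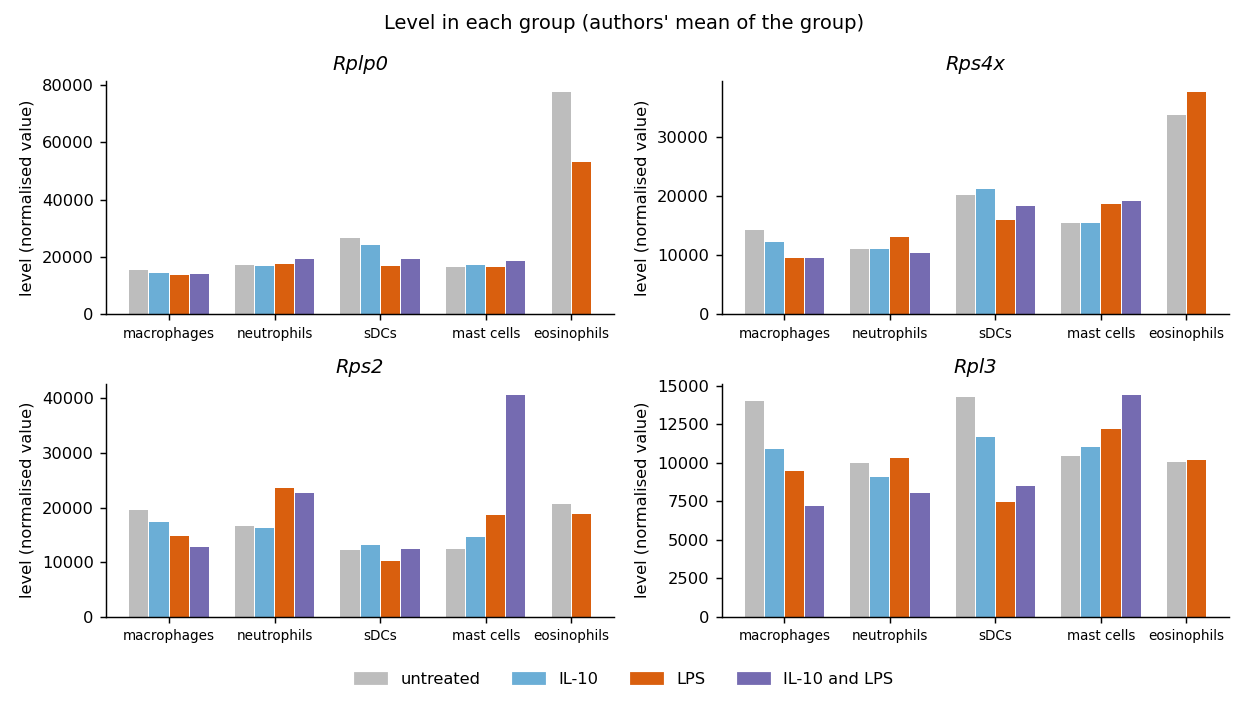
Level of 4 ribosomal protein genes in each group, as the authors' normalised group means with no unit; each bar is 1 group and the colours give the treatment. Rplp0 and Rps4x are highest in eosinophils, Rps2 reaches 40648.5 in mast cells with IL-10 and LPS, and Rpl3 is lower with LPS in macrophages and sDCs but not in the other cell types.

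With LPS, ribosomal protein mRNA was lower in sDCs and macrophages and slightly higher in mast cells. The summed level went from 199284 to 147474.5 in sDCs (-26.0%) and from 137954 to 110049.5 in macrophages (-20.2%). It was 132024 untreated and 154683 with LPS in mast cells (17.2% higher), 129557 and 139821 in neutrophils (7.92% higher), and 266247.5 and 244721 in eosinophils (-8.09%). Without Rplp0 the eosinophil sums were 188693 and 191701. No ribosomal protein gene differed by at least 2-fold in any of these 5 comparisons, where 20.4% of all gene names did so in sDCs, 27.3% in macrophages, 10.1% in mast cells, 16.5% in neutrophils and 2.86% in eosinophils. Differences were thus small, and no single direction held across the 5 cell types.

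The median log2 difference of the list with LPS was -0.43 in sDCs, -0.25 in macrophages, 0.17 in mast cells, 0.08 in neutrophils and -0.01 in eosinophils. The medians of all gene names were -0.14, -0.15, -0.08, -0.03 and -0.02 in the same order of cell types. In sDCs and in macrophages 12 of 13 genes tested were lower, and in each the exception was Rps4y2. In mast cells 12 of 13 were higher, with 9 of 14 in neutrophils and 5 of 14 in eosinophils. Measured from the median of all gene names instead of from 0, 12 of 13 were lower in sDCs, 9 of 13 in macrophages and 6 of 14 in eosinophils, and 12 of 13 were higher in mast cells. Higher by any amount were 40.3% of all gene names in sDCs, 41.2% in macrophages, 39.5% in mast cells, 46.9% in neutrophils and 43.3% in eosinophils.

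Rpl3 was the member with the largest fall in sDCs and among the 3 largest in macrophages. It went from 14258.5 to 7434 in sDCs (log2 difference -0.94) and from 14051.5 to 9470 in macrophages (-0.57). In neutrophils it was 9998 untreated and 10307 with LPS, in mast cells 10421.5 and 12231.5, and in eosinophils 10055 and 10166. Rps4x and Rpl7 in macrophages were lower by about the same amount as Rpl3, from 14258.5 to 9556.5 and from 11866.5 to 7999.5. Rplp0 in sDCs went from 26513.5 to 16753.5 (-0.66), and Rpl8, next to it in size, from 15416.5 to 11189.5 (-0.46). In eosinophils Rplp0 had the largest difference of the list (-0.55), while Rps4x was at 33794.5 and 37661.5.

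Rps2 was among the 3 largest rises with LPS in neutrophils and mast cells and lower in the other cell types. It went from 16628.5 to 23574.5 in neutrophils (log2 difference 0.50) and from 12324.5 to 18629.5 in mast cells (0.60). In macrophages it was 19607.5 untreated and 14721.5 with LPS, in sDCs 12268 and 10261, and in eosinophils 20688.5 and 18777. Rpl9 followed in mast cells, at 6843 and 8975.5. Rpl6, at 8684.5 and 7805, had the largest fall in neutrophils (-0.15). The largest rises by ratio in neutrophils and sDCs were those of the low paralog Rps4y2 (125.5 to 232, and 146 to 242.5).

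The same comparison in the presence of IL-10 used other libraries throughout. Between the IL-10 group and the IL-10 and LPS group the median log2 difference of the list was -0.21 in sDCs, -0.26 in macrophages, 0.04 in neutrophils and 0.31 in mast cells, beside -0.10, -0.09, -0.005 and -0.05 over all gene names. In macrophages and in sDCs 11 of 13 genes were lower both without and with IL-10, and 1 of 13 (Rps4y2) was higher in both. In mast cells 12 of 13 were higher in both. In neutrophils 6 of 14 were higher in both and 3 lower in both. The share of all gene names that went the same way in both comparisons was not computed, so these joint counts have no background. Higher by any amount with LPS in the presence of IL-10 were 44.0% of all gene names in macrophages, 40.6% in sDCs, 49.3% in neutrophils and 43.1% in mast cells. Differences of at least 2-fold were held by 16.9% of all gene names in sDCs, 22.3% in macrophages, 8.47% in mast cells and 11.4% in neutrophils, and by 1 ribosomal protein gene, Rps2 in mast cells (14684.5 with IL-10, 40648.5 with both).

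Markers of other cells in the sDC and neutrophil preparations moved with LPS too. In sDCs Mpo, of neutrophil precursors, was at 4890 untreated and 714 with LPS, Kit, of mast cells and progenitors, at 8800 and 5718.5, and Itgax at 4075.5 and 818.5. In neutrophils the erythroid gene Hbb-b1 was at 4485.5 untreated and 2346.5 with LPS, the B cell gene Cd79b at 2143.5 and 1195, and Kit at 3906.5 and 1882. The part of these markers in the ribosomal protein and Eif levels of sDCs and neutrophils with LPS was not tested.

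**Figure D3:**
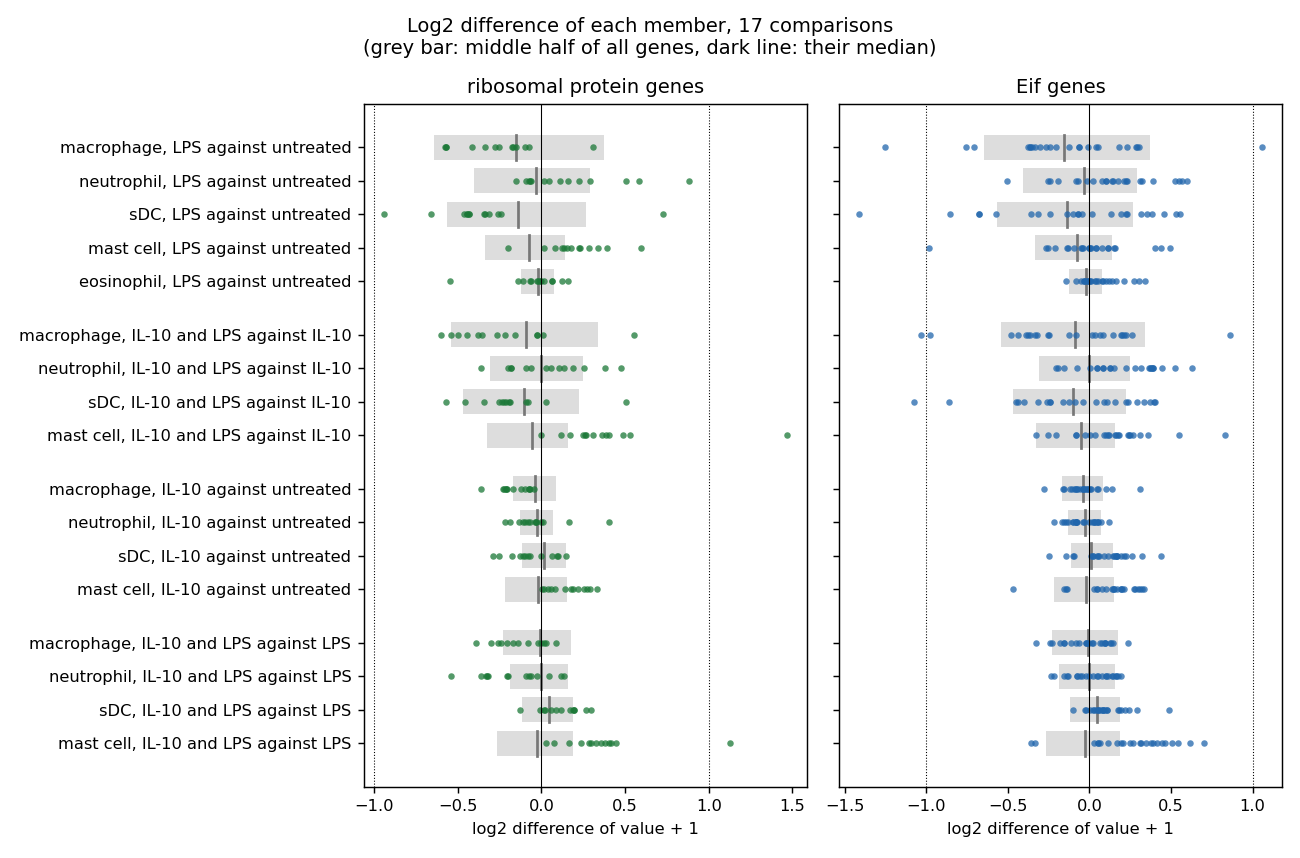
Log2 difference of value + 1 for each ribosomal protein gene (left, green) and Eif gene (right, blue) in 17 comparisons, 1 per row; the grey bar spans the interquartile range of all gene names and the dark line is their median, and dotted lines mark 2-fold. Ribosomal protein genes lie to the left in macrophages and sDCs with LPS and to the right in all 4 mast cell rows, with few points beyond 2-fold.

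With IL-10 alone, ribosomal protein genes were lower in macrophages and higher in mast cells, by small amounts. In macrophages all 13 genes tested were lower, with a median log2 difference of -0.17 (-0.04 over all gene names) and a summed level of 137954 untreated and 123265.5 with IL-10. In mast cells all 13 were higher, with a median of 0.18 (-0.02 over all gene names) and sums of 132024 and 145812. The median was -0.05 in neutrophils, where 3 of 14 were higher, and -0.08 in sDCs, where 4 of 13 were higher. Higher by any amount were 40.2% of all gene names in macrophages, 46.2% in mast cells, 41.5% in neutrophils and 52.5% in sDCs. None of the list differed by 2-fold, and few of all gene names did: 4.79% in mast cells, 3.83% in macrophages, 2.19% in sDCs and 1.73% in neutrophils.

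Rpl3 had the largest fall in macrophages, from 14051.5 to 10926 (log2 difference -0.36), and in sDCs, from 14258.5 to 11664 (-0.29). Rps4x was at 14258.5 and 12206.5 in macrophages. In mast cells the largest rises were those of Rpl7a (8842 to 11149, 0.33), Rpl8 (9599 to 11734.5, 0.29) and Rpl6 (8243 to 9937, 0.27), all of the large subunit.

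When LPS was present, IL-10 went with a higher level of ribosomal protein mRNA in mast cells and, less so, in sDCs. In mast cells the sum was 154683 with LPS and 203534 with IL-10 and LPS, a ratio of 1.32, and all 13 genes tested were higher, with a median log2 difference of 0.33 (-0.02 over all gene names). In sDCs the sums were 147474.5 and 162534, and 11 of 13 were higher (median 0.11, 0.04 over all gene names). In macrophages 10 of 13 were lower (median -0.14), with sums of 110049.5 and 99740.5, and in neutrophils 11 of 14 were lower (median -0.15), with sums of 139821 and 131223. The medians of all gene names were -0.01 and 0.00 in these cell types. Higher by any amount were 46.8% of all gene names in mast cells, 57.6% in sDCs, 48.4% in macrophages and 49.6% in neutrophils. At least 2-fold differences were held by 7.33% of all gene names in mast cells, 4.41% in sDCs, 7.17% in macrophages and 6.65% in neutrophils.

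Rps2 in mast cells was the only ribosomal protein gene past 2-fold in this comparison. Its 4 mast cell levels were 12324.5 untreated, 14684.5 with IL-10, 18629.5 with LPS and 40648.5 with both, a log2 difference of 1.13 between both and LPS. The rise was in the main transcript, at 16418.5 with LPS and 36637 with both, which ranked 63 and 23 among the transcripts of the table in these groups. Near the top of the ladder a gain of few ranks is a large gain in level, as for Rplp0. Without Rps2 the other 12 genes ranged in log2 difference from 0.03 (Rps4x) to 0.45 (Rpl7a), so the direction of the list did not rest on it. The same 13 genes, as sums of transcripts, were higher with IL-10 in mast cells both without and with LPS, in comparisons that share no library. By main transcript alone not all were higher. Without LPS, those of Rps3 (9022 untreated, 8923 with IL-10), Rpl7 (11520 and 11470) and Rps4x (15131.5 and 15068) were slightly lower. With LPS, that of Rpl7 was at 12594 without and 12544 with IL-10, and that of Rps4x at 18477 in each. In macrophages 10 of 13 sums were lower in both comparisons and none was higher in both, and in neutrophils 8 of 14 were lower in both and none higher in both. In sDCs 1 was lower and 3 were higher in both. How many of all gene names went the same way in both was not computed, so these joint counts too have no background.

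**Figure D4:**
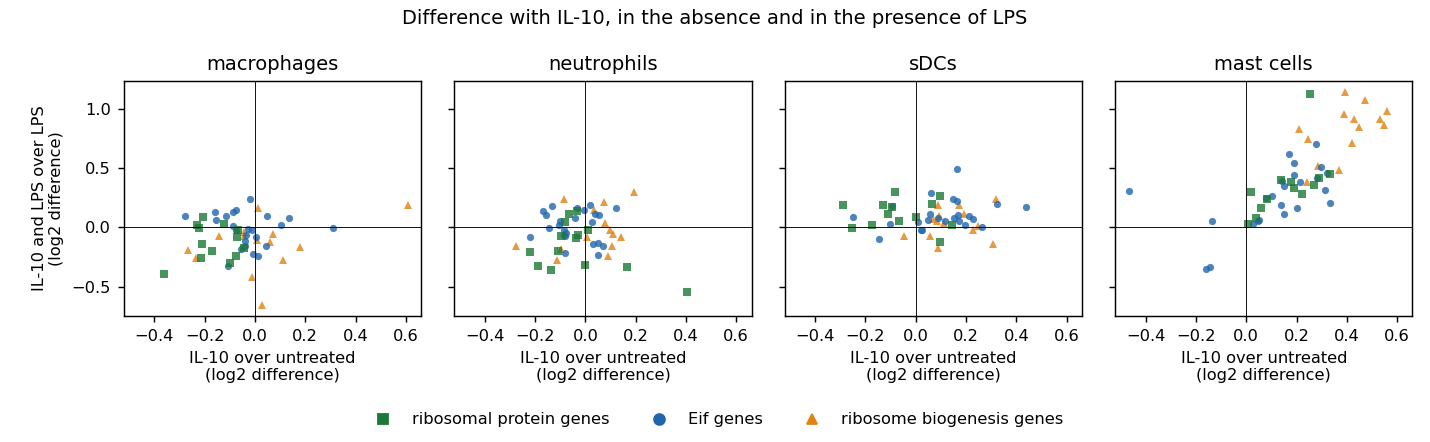
Log2 difference with IL-10 in the absence of LPS (x axis) and in its presence (y axis) for ribosomal protein genes (squares), Eif genes (circles) and 14 ribosome biogenesis genes (triangles), 1 panel per cell type; each point is 1 gene. In mast cells nearly all points lie in the upper right, with Rps2 and the biogenesis genes uppermost, while in the other cell types points lie around 0.

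Single transcripts of a gene could differ far more than its sum. The Rps9 transcript ENSMUST00000128729 was at 1258.5 in untreated neutrophils, listed at 0 with LPS and at 1466 with both, while the main Rps9 transcript was at 8371, 9072.5 and 7525. Another Rps2 transcript, ENSMUST00000129580, was at 4779 in untreated eosinophils, 3388.5 in neutrophils, 2465 in macrophages, 557.5 in mast cells and 18 in sDCs. An Eif5a transcript, ENSMUST00000164359, was likewise lowest in sDCs (170.5), with 1711 in mast cells, 5885 in macrophages, 8647.5 in eosinophils and 9075.5 in neutrophils. The kit differs between these cell types as described above, and its part in these levels was not tested.

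By summed level the Eif genes were less uneven among cell types than the ribosomal protein genes. Their summed untreated level was 112601.5 in mast cells, 110924 in macrophages, 101471.5 in neutrophils, 100749 in eosinophils and 99384 in sDCs. Single Eif genes were less even than their sum. Their ratio of highest to lowest untreated level ran from 1.18 (Eif3g) to 4.11 (Eif2s2). For ribosomal protein genes other than the low paralogs it ran from 1.43 (Rpl3) to 5.02 (Rplp0). Of 24 genes, 9 were highest in untreated macrophages, 5 in mast cells, 4 in sDCs, 3 in neutrophils and 3 in eosinophils. The shares of all gene names were 24.4%, 25.3%, 20.1%, 12.6% and 17.6% in the same order. The Eif share was above that of all gene names in macrophages alone (37.5%). Lowest in sDCs were 9 of 24, against 20.8% of all gene names. Eosinophils and sDCs, with the most ribosomal protein mRNA, had the lowest Eif sums. Neutrophils, with the lowest ribosomal protein sum, were close to eosinophils in Eif sum (101471.5 and 100749), with no spread to set this against.

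With LPS the Eif sum was lower in sDCs (99384 to 77307) and macrophages (110924 to 95062), higher in neutrophils (101471.5 to 111535) and eosinophils (100749 to 105916), and close to level in mast cells (112601.5 and 110910.5). The median log2 difference was -0.06 in sDCs, -0.16 in macrophages, 0.14 in neutrophils, 0.04 in eosinophils and 0.00 in mast cells. Measured from the median of all gene names it was 0.08 in sDCs, so that the median of the list turned direction there, and -0.01 in macrophages, 0.17 in neutrophils, 0.06 in eosinophils and 0.08 in mast cells. Of 24 genes, 11 were higher in sDCs, 8 in macrophages, 17 in neutrophils, 15 in eosinophils and 12 in mast cells. Of all gene names, 40.3%, 41.2%, 46.9%, 43.3% and 39.5% were higher in the same order. At least 2-fold differences were held by 2 genes in macrophages (Eif4b and Eif6) and 1 in sDCs (Eif4b), and by no Eif gene in the other 3 cell types. That is 2 of 24 where 27.3% of all gene names in macrophages differed by as much, and 1 of 24 where 20.4% did in sDCs. In the other 3 cell types the share of all gene names was 16.5% in neutrophils, 10.1% in mast cells and 2.86% in eosinophils.

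Eif4b, which stimulates the helicase that unwinds mRNA ahead of the scanning ribosome, was lower with LPS in all 5 cell types. It went from 16002 to 6019 in sDCs (log2 difference -1.41), from 10195 to 4281 in macrophages (-1.25), from 12162.5 to 6155.5 in mast cells (-0.98), from 7045 to 4969 in neutrophils (-0.50) and from 11043.5 to 9995.5 in eosinophils (-0.14). It was the member with the largest fall in each of the 5. In the presence of IL-10 the same comparison gave 13472 and 6386 in sDCs (-1.08), 9155 and 4477.5 in macrophages (-1.03), 8801 and 7630.5 in mast cells (-0.21) and 6423 and 5622.5 in neutrophils (-0.19). With IL-10 alone it was also lower than untreated in all 4 cell types, by a log2 difference of -0.47 in mast cells, -0.25 in sDCs, -0.16 in macrophages and -0.13 in neutrophils. With IL-10 and LPS against LPS it was higher in all 4, by 0.31, 0.09, 0.06 and 0.18 in the same order of cell types. Its levels without LPS (6423 to 16002) and with LPS (4281 to 9995.5) overlapped across cell types but not within any.

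Eif6, which keeps the large subunit from joining the small one until initiation is complete and which also serves in ribosome assembly, was higher with LPS in all 5 cell types. It went from 1911.5 to 3987 in macrophages (log2 difference 1.06), from 1875.5 to 2744.5 in neutrophils (0.55), from 1459 to 2109 in sDCs (0.53), from 1675.5 to 2269 in mast cells (0.44) and from 2051.5 to 2201 in eosinophils (0.10). With IL-10 present the values were 1974 and 3584 in macrophages (0.86), 1941 and 2502 in neutrophils (0.37), 1825.5 and 2413 in sDCs (0.40) and 2112.5 and 2615 in mast cells (0.31). With IL-10 alone it was at 1825.5 against 1459 in sDCs (0.32) and 2112.5 against 1675.5 in mast cells (0.33), and within 0.05 of untreated on the log2 scale in macrophages and neutrophils.

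**Figure D5:**
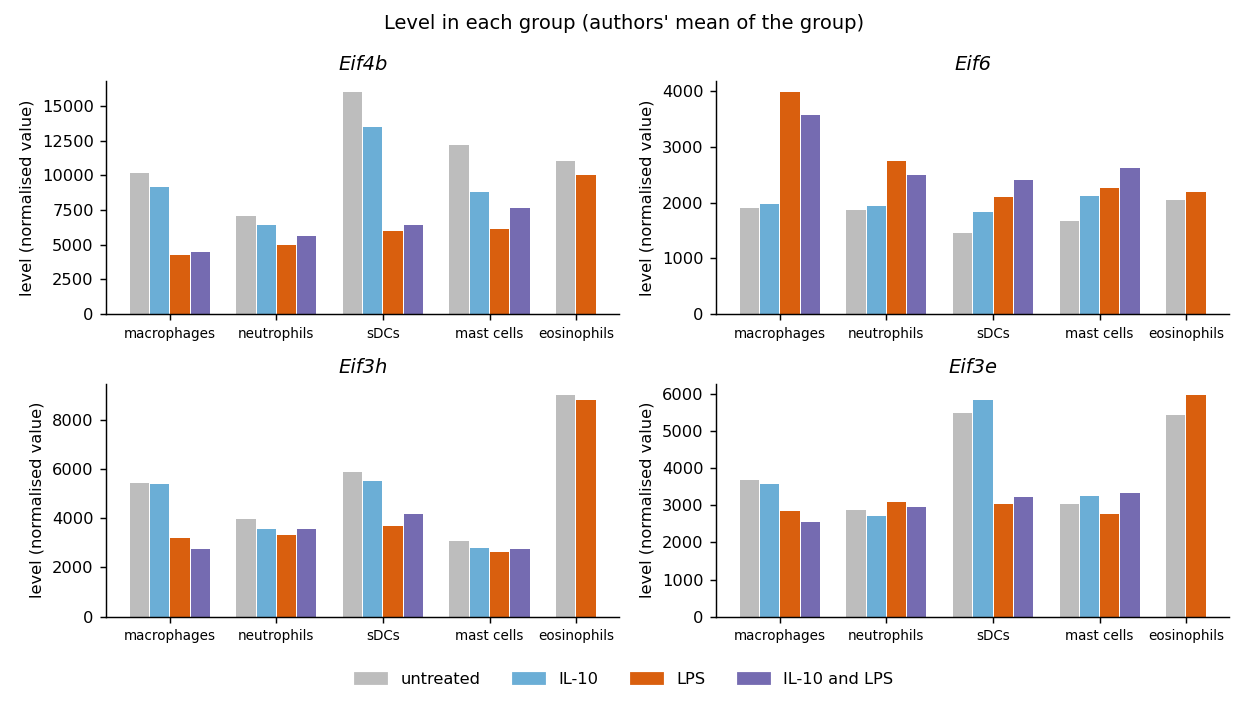
Level of 4 Eif genes in each group, as the authors' normalised group means with no unit; each bar is 1 group and the colours give the treatment. Eif4b is lower and Eif6 higher in the LPS groups of every cell type, and Eif3h and Eif3e are lower with LPS in macrophages and sDCs, with or without IL-10.

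Subunits of eIF3, the large scaffold that holds the small subunit and the other factors, did not move as a unit with LPS. Eif3h was at 5424 untreated and 3213 with LPS in macrophages (log2 difference -0.76), and at 5866.5 and 3670.5 in sDCs (-0.68). Eif3e was at 5489 and 3036 in sDCs (-0.85) and at 3674 and 2855.5 in macrophages (-0.36). Eif3a, the largest subunit, was at 13486 and 8426 in sDCs (-0.68), at 13712 and 10650.5 in macrophages (-0.36), and at 10078.5 and 11752 in neutrophils (0.22). Eif3d and Eif3g went the other way in sDCs, from 2522 to 2951 and from 1428.5 to 1674, and Eif3g also in macrophages, from 1405.5 to 1648. Eif3c was at 8512 and 8458 in macrophages and 6403 and 5426.5 in sDCs. Eif3l was at 3395 and 2689.5 in macrophages and 2934 and 2358.5 in sDCs. With IL-10 present, Eif3h went from 5402 to 2742.5 in macrophages (-0.98) and Eif3e from 5837 to 3214.5 in sDCs (-0.86), close to 2-fold. At rest Eif3h was highest in eosinophils (9011) and lowest in mast cells (3056).

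Eif2s2, the beta subunit of eIF2, which carries the starter tRNA, was the subunit with the widest range at rest. It was at 9655.5 in untreated neutrophils, 7637.5 in eosinophils, 7038 in macrophages, 2390 in sDCs and 2349.5 in mast cells. It was higher with LPS in all 5 cell types, by log2 differences from 0.23 in neutrophils to 0.45 in sDCs. In sDCs the main transcript alone was lower, at 1953 untreated and 1803 with LPS, while ENSMUST00000166171, listed at 0 in every macrophage, neutrophil and eosinophil group, was at 369.5 and 1350. In the mast cell groups that transcript was at 483.5 to 542. Mast cells and sDCs are the cell types with TruSeq libraries, and the part of the kit in these Eif2s2 levels was not tested. In mast cells Eif2s2 as a whole was at 2349.5 untreated, 2844.5 with IL-10, 3105 with LPS and 5054 with both, the largest rise of the Eif list with IL-10 and LPS against LPS (0.70). Eif2s3x, the gamma subunit, varied less at rest, from 2046 in sDCs to 3312.5 in macrophages, and was at 3272 with LPS and 4648 with both in mast cells. Of eIF2B, the exchange factor that recharges eIF2, Eif2b2 lay between 671 and 1143 in all groups. Eif2b3 was low everywhere, between 96.5 in untreated sDCs and 475.5 in mast cells with both, and had the largest Eif rises with LPS in neutrophils (232 to 351.5), sDCs (96.5 to 142.5) and eosinophils (162.5 to 206).

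Of eIF4F, which binds the cap, Eif4e, the cap-binding protein, was highest in untreated macrophages (3364.5) and lowest in sDCs (1127). It was at 4175 in macrophages with IL-10, the largest Eif rise there (0.31), and at 3085 with LPS and 3077 with both. Eif4e2, a homologue that represses translation of bound mRNAs, was higher with LPS in macrophages (2233 to 2737) and sDCs (2156.5 to 2809). The helicase Eif4a1 was at 12675.5 in untreated mast cells and 11370.5 in macrophages, with 5504.5 to 6609 in the other cell types. With LPS it was higher in neutrophils (6609 to 9786, log2 difference 0.57) and lower in macrophages (11370.5 to 8776). Its paralog Eif4a2 was highest in sDCs (11648) and lower with LPS there (7846) and in macrophages (3726.5 to 2283.5, -0.71). Per kb of transcript, untreated sDCs held more Eif4a2 (5800.7) than Eif4a1 (3546.9), while macrophages (1956.5 and 6414.7), neutrophils (1778 and 3718.9), mast cells (3905.3 and 7079.9) and eosinophils (2561.4 and 3126.3) held less.

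Among factors of the late steps, Eif5a, which with its hypusine residue helps elongation past stalling sequences and so is no initiation factor in the strict sense, was at 16154.5 in untreated neutrophils and 4614.5 in sDCs. It was higher with LPS in mast cells (9983.5 to 14039.5, log2 difference 0.49). Eif5, which triggers GTP hydrolysis by eIF2, was at 9782 in untreated neutrophils and 9247.5 in mast cells, and at 4527.5 to 5611 in the others. Eif5b, which joins the subunits, was highest in untreated macrophages (5729.5) and at 2763.5 and 3970.5 in neutrophils untreated and with LPS (0.52). Eif2d, which can deliver tRNA without eIF2, was lowest in untreated macrophages (431.5) and highest in mast cells (1384). Of eIF1 factors, which keep the scanning ribosome open, Eif1ax lay between 1060.5 and 1827 over all groups, and Eif1b between 545.5 and 1161.5.

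Eif2c2, an older symbol of Argonaute 2, the slicer of the microRNA pathway, matches the name rule but is no initiation factor. It was at 10055.5 in untreated mast cells, 2.88 times the 3489 of macrophages, and at 2456.5 to 2881.5 in the other cell types. In mast cells it was at 9092.5 with IL-10, 9129.5 with LPS and 7258.5 with both. It moved against most of the Eif list there with IL-10, together with Eif2d.

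With IL-10 alone no Eif gene differed by 2-fold, and the median log2 difference was 0.15 in mast cells, 0.13 in sDCs, -0.04 in macrophages and -0.06 in neutrophils. Higher were 20 of 24 in mast cells, 20 in sDCs, 7 in macrophages and 9 in neutrophils. Over all gene names the medians were -0.02, 0.01, -0.04 and -0.03, and 4.79%, 2.19%, 3.83% and 1.73% differed by 2-fold, in the same order. With IL-10 and LPS against LPS again no Eif gene reached 2-fold, and the Eif medians were 0.29, 0.08, -0.01 and 0.03, with 22, 21, 11 and 13 of 24 higher in the same order. Over all gene names the medians there were -0.025, 0.04, -0.01 and 0.00, and 7.33%, 4.41%, 7.17% and 6.65% differed by 2-fold. In mast cells 20 of 24 were higher in both comparisons, which share no library, and 2 (Eif2c2 and Eif2d) were lower in both. In sDCs 18 of 24 were higher in both. Taken singly, 20 and 21 of 24 were higher in sDCs, beside 52.5% and 57.6% of all gene names. In mast cells 46.2% and 46.8% of all gene names were higher. These shares were 40.2% and 48.4% in macrophages and 41.5% and 49.6% in neutrophils. The share of all gene names higher in both comparisons was not computed for any cell type. The Eif sums in mast cells were 110910.5 with LPS and 134636.5 with both. With LPS in the presence of IL-10, 1 Eif gene passed 2-fold in macrophages and 1 in sDCs, Eif4b in each, and neither did when measured from the median of all gene names (-0.94 and -0.97). Of all gene names 22.3% in macrophages and 16.9% in sDCs differed by at least 2-fold in that comparison.

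Genes that make ribosomes were higher with IL-10 in mast cells, as the members were. By number of genes they went against the ribosomal protein genes with LPS in mast cells, macrophages and sDCs, but by summed level not in macrophages. Of 31 ribosome biogenesis genes listed, 14 were in the table. In mast cells all 14 were higher with IL-10 alone (median log2 difference 0.41) and all 14 with IL-10 and LPS against LPS (0.86), 2 of them (Nop2 and Nolc1) at least 2-fold. Ncl, nucleolin, was at 11352 untreated, 13108.5 with IL-10, 9768.5 with LPS and 17357.5 with both, and Nop2, a methyltransferase of ribosomal RNA, at 1605.5, 2109.5, 1129 and 2498. With LPS alone 12 of 14 were lower in mast cells (-0.21), where ribosomal protein genes were higher. In sDCs and macrophages, where ribosomal protein genes were lower with LPS, 12 and 10 of 14 were higher (0.57 and 0.27), such as Rrs1, at 635 and 1554 in macrophages. Ncl and Npm1, a nucleolar chaperone, were lower in both, at 7848.5 and 5749.5 and at 12868 and 8840 in macrophages. The macrophage sum of the 14 genes was 30924.5 untreated and 28014 with LPS, lower as for the ribosomal protein genes. Of all gene names in mast cells, 46.2% were higher with IL-10 alone and 46.8% with IL-10 and LPS against LPS, where 7.33% differed at least 2-fold. With LPS alone 39.5% were higher in mast cells, 40.3% in sDCs and 41.2% in macrophages.

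Of 22 genes of mTOR signalling, 8 were in the table, and Larp1 and Deptor differed most. Larp1, which binds mRNAs that begin with the terminal oligopyrimidine tract, was at 4137.5 untreated, 5695.5 with IL-10, 11820 with LPS and 12995 with both in macrophages. It was at 3361.5 and 6776 in sDCs untreated and with LPS, 4198.5 and 6092.5 in neutrophils, 4317 and 4077 in mast cells and 2794.5 and 3294.5 in eosinophils. In mast cells with both agents it reached 7576. Deptor, an inhibitor of mTOR, was lower with LPS in macrophages (589 to 159), sDCs (251.5 to 53.5), neutrophils (237.5 to 80) and mast cells (615 to 204.5). With IL-10 alone it was also lower than untreated in each of these, at 164 in mast cells, 143 in sDCs, 182 in neutrophils and 496.5 in macrophages. The 6 others, among them Akt1 and Tsc2, differed by less than 2-fold in each comparison of LPS with untreated.

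Of 8 elongation and 4 termination and recycling genes, 2 and 2 were in the table. Eef1a1, the factor that brings tRNA to the ribosome, was at 187113.5 in untreated mast cells and 185702 in sDCs, at the top of the ladder, so a rise there could not be seen. It was at 79031.5 in untreated macrophages, 62712.5 in eosinophils and 60517 in neutrophils, and at 37462 in neutrophils with LPS. Mast cells and sDCs are the cell types with TruSeq libraries, and the part of the kit in their higher Eef1a1 level was not tested. Eef1d stayed between 1670 and 2545.5 in all groups. Abce1, which splits ribosomes after termination, was at 5149 untreated, 7294 with IL-10, 4424.5 with LPS and 7924.5 with both in mast cells, the same order as Ncl. Gspt2 was low, at 131.5 or below in every group.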

How the data were processed

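The deposited table holds 1 value per transcript and group, a score with no unit. Alignment was by Bowtie 0.12.9 to mm9 and quantification by RSEM 1.2.1, per the labels; the authors then corrected for GC content and applied full-quantile normalisation with EDASeq, and deposited the mean of the 2 libraries of each group. No counts or single libraries were used here. The table ends in 1 line that is broken off, which was dropped. Another 22 lines had no gene name, with 0.0765% of the summed values, and were left out. The remaining 16993 transcripts of 6509 gene names covered 18 groups (36 of 37 samples; 1 sample has no column and was not used). Transcripts were summed per gene name.

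Log2 differences were taken on value + 1 for genes with at least 10 in either group compared, and 2-fold or more was called; a log2(value + 1) scale understates differences of low genes. All alternatives are given in the closing section. Transcript lengths and starts came from GENCODE vM1 on NCBIM37, which held 148 of 149 member transcripts. The genes named were the 3 largest rises and the 3 largest falls of each list and comparison with at least 50 in either group, plus stalk protein, paralogs, eIF2, eIF4F and the other Eif genes by role. Some genes that meet this rule are not reported here by name. Single transcripts and fixed-list genes beyond this rule were named after their values had been seen. Members and gene lists were chosen with earlier results of these data known. RSEM shares reads between near-identical copies, which can move levels between ribosomal protein genes and their pseudogenes. Calculations used Python 3.11.15, numpy 2.4.6 and pandas 2.3.3, with figures drawn by matplotlib 3.10.9, and were tested on simulated data.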

Additional observations from a re-analysis of the deposited data

How the results depend on the processing

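Each median and each count of genes past 2-fold was recomputed with a pseudocount of 10, a minimum of 50, no minimum, values centred on the median of all gene names, and the most abundant transcript of each gene alone, and, chosen after seeing the data, a minimum of 1000. A median counted as the same if it moved by less than the interquartile range over the members divided by 2. Of 204 recomputed medians 201 were the same by this measure, and of 204 counts 197 lay within 1.5 times. Centring gave a ribosomal protein median with LPS of -0.10 in macrophages and -0.29 in sDCs, and of -0.11 in sDCs with IL-10 and LPS against IL-10; the shift is the median of all gene names, by construction. Centring also gave 0 Eif genes past 2-fold in macrophages and in sDCs with IL-10 and LPS against IL-10, in place of 1 (Eif4b). With no minimum, 1 ribosomal protein gene, the low Rpl3l, passed 2-fold in sDCs with LPS, in macrophages with IL-10, and in both with IL-10 and LPS against IL-10, since it then entered the count. With the most abundant transcript alone, 1 Eif gene, Eif2s2, passed 2-fold in mast cells with IL-10 and LPS against IL-10. The summed untreated level of the ribosomal protein genes, as a log2 ratio to the mean of the 5 untreated groups, was 0.62 in eosinophils and -0.42 in neutrophils, and 0.42 and -0.26 as a median over members. The other 18 of 20 such ratios were the same. Leaving out a library was not possible, because the table holds 1 mean per group. No paired analysis was possible because the table holds 1 mean per group. Depth cannot be set against any value, and a difference between groups cannot be set against the spread between libraries.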

Other observations

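Among targets of the integrated stress response, in which phosphorylated eIF2 slows initiation while Atf4 is translated, 5 of 7 listed genes were in the table. With LPS all 5 were higher in macrophages (median log2 difference 1.53, 4 of them at least 2-fold, as were 27.3% of all gene names), in neutrophils (0.40) and in sDCs (0.52). In mast cells 3 were higher and 2 lower (0.04), with Trib3 lower by more than 2-fold at 59 and 27, and in eosinophils 2 were higher and 3 lower (-0.09). Asns, asparagine synthetase, was at 1130 and 3273.5 in macrophages untreated and with LPS, and Trib3 at 206.5 and 835.5. In mast cells Asns was at 163.5 untreated, 347 with IL-10, 180.5 with LPS and 455 with both, so it was higher with IL-10 whether or not LPS was given. Ppp1r15a, which recruits a phosphatase to eIF2, was at 1012.5 untreated, 943.5 with IL-10, 3294.5 with LPS and 1909.5 with both in macrophages.

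Rpsa, a small-subunit protein also known as the laminin receptor, was not matched by the name rule. It was at 29684 in untreated sDCs, 19459.5 in eosinophils, 14562 in neutrophils, 13891.5 in macrophages and 12808 in mast cells. With LPS it was at 18539.5 in sDCs and 11752.5 in macrophages. In mast cells Rpsa was at 12808 untreated, 12062 with IL-10, 13602 with LPS and 16608.5 with both. With IL-10 alone it was thus slightly lower there, unlike the ribosomal protein genes that the rule matched. The Rpsa pseudogene Rpsa-ps10 stayed at 150.5 or below in every group, and the pseudogenes Rpl7a-ps3 and Rpl7a-ps10 at 59.5 or below.

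Of 10 proliferation genes 4 were in the table. Top2a was at 9978.5 in untreated eosinophils and 8354.5 in neutrophils, and at 284 to 548.5 in untreated mast cells, sDCs and macrophages. In mast cells Top2a was between 284 and 330 in the 4 groups and Mcm5 between 245 and 350.5. Mcm3 was at 1663.5 untreated, 1933 with IL-10, 2032.5 with LPS and 1967 with both, and Mcm6 at 2196.5, 2085.5, 1387.5 and 1445.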
